A study of Rattus norvegicus with 25 samples.

Results

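Desmosomes are spot-like junctions that hold neighbouring epithelial cells together and tie their surfaces to the keratin filaments inside. Their outer part is built from 2 families of cadherins, the desmogleins and the desmocollins, and their inner part from plakoglobin, the plakophilins and desmoplakin, which grips the keratins. In stratified epithelia such as that of the gingiva the cadherins Dsg3 and Dsc3 belong mainly to the lower layers. Dsg2 and Dsc2 are the cadherins of simple and glandular epithelia but are not confined to them. The genes described here are those of this junction, chosen by name and not by their values: Dsp, Jup, Pkp1, Pkp2, Pkp3, Dsg2, Dsg3, Dsc2, Dsc3 and Perp. Of these 10 genes, 9 were analysed among 30547 genes, and Pkp2 was not analysed here.

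RNA of the gingiva was sequenced in 25 wild-type Sprague-Dawley rats, given in the labels as 6 weeks old, with 5 rats in each of 5 groups and 1 library per rat. The paper gives an older starting age and has the gels begin a month after the ligatures, so the age at sampling is not settled by the label. Rats of 3 groups had experimental periodontitis and received hydrogel loaded with curcumin (Cur gel), zinc oxide nanoparticles (ZNP gel) or both agents (Cur/ZNP gel), 200 μL once a week for 4 weeks into the pockets of the first upper molars, the combined gel with less of each agent than the single gels. EP rats had experimental periodontitis, made with silk ligatures on both first upper molars and Porphyromonas gingivalis smeared on the silk, and whether they were given drug-free hydrogel is not stated. Sham rats received hydrogel alone. The reads per library were 61098643 to 68583320 for Cur gel, 59749001 to 81791804 for ZNP gel, 58815120 to 62712128 for Cur/ZNP gel, 61292453 to 70801162 for EP and 50690789 to 61490425 for sham. Values are normalized counts, that is, reads divided by 1 scaling factor per library, and all 9 genes passed the filter on low counts.

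Keratinocyte markers were present in every library, as the tissue label implies, but 3 libraries stood apart. Krt5, the keratin of basal keratinocytes, had at least 34582 normalized counts in each library. Genes of a nasal gland list held 16.8% and 20.9% of the reads in EP 3 and EP 4 and 22.1% in sham 4, against at most 0.107% in the other 22 libraries. In sham 4 the 9 desmosome genes together held 0.0759% of the reads, against 0.926% to 1.38% in the other 4 sham libraries. The summed share of the 6 markers of basal keratinocytes was 0.0841% in sham 4, against 1.36% to 2.49% in the other sham libraries. Krt15 alone of these markers was highest in sham 4, with 9230 normalized counts against 2975 to 7790 in the other sham libraries. In whole gingiva, fewer keratinocytes and less RNA per keratinocyte cannot be told apart. The counts of desmosome genes called against sham are therefore given with and without sham 4. Because sham 4 was set apart partly by low values of these same genes, the fits without it show its weight and are not independent support. EP 3 and EP 4, where the 9 genes held 0.177% and 0.219% of the reads, stay in those fits unless stated.

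The 9 genes fell into 2 sets by how they varied over the 25 libraries. Dsp, Jup, Pkp1, Pkp3, Dsg3, Dsc3 and Perp varied together, with Pearson r between 0.808 and 0.983 in their 21 pairs on the log2 scale. Dsg2 and Dsc2 varied with each other (r = 0.859) and little with the other 7 genes, with r between -0.331 and 0.066 in 14 pairs. Without sham 4, EP 3 and EP 4 these ranges were 0.85 to 0.974 among the 7 genes and -0.123 to 0.138 across the sets, and r between Dsg2 and Dsc2 was 0.972 (n = 22). These correlations describe libraries that share scaling and tissue make-up, and no test was made of them.

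**Figure D1:**
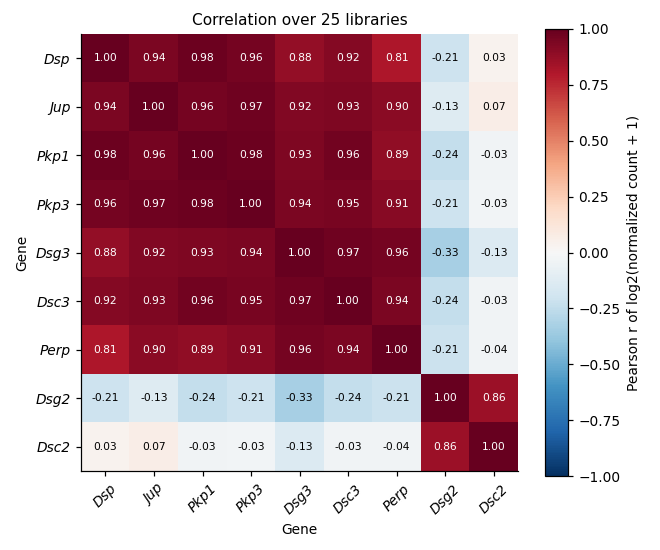
Pearson r of log2(normalized count + 1) for each pair of the 9 genes over 25 libraries, on a scale from -1 (blue) to 1 (red). The 7 genes from Dsp to Perp form a block with r of 0.808 to 0.983, and Dsg2 and Dsc2 form a separate pair with r = 0.859.

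The 4 cadherin genes lie on chromosome 18 in 2 neighbouring pairs, the desmocollins and the desmogleins, each with 1 gene of either set, all on the minus strand in the Rnor_6.0 annotation of the deposited table. Dsc3 spans chr18:11753047-11789708, Dsc2 chr18:11826706-11858754, Dsg2 chr18:15579315-15637715 and Dsg3 chr18:15650526-15688284. A short noncoding RNA gene lies inside Dsc3 on the same strand, and how their reads were divided is not stated. The other genes lie apart, Dsp at chr17:27286796-27334379, Jup at chr10:88279632-88307412 and Pkp1 at chr13:52705174-52752997, all on the minus strand, and Perp at chr1:14224393-14236846 and Pkp3 at chr1:213886775-213897783 on the plus strand.

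Since the neighbours in each pair varied apart, the 250 bases before the start of these 4 cadherin genes are shown, together with those of Perp, the gene called most often below. They are RefSeq sequences of the GRCr8 build, whose coordinates differ from those of Rnor_6.0. In GRCr8 the desmocollins and the desmogleins lie closer together, with Dsg2 and Dsg3 in the opposite order and on the opposite strand. Capitals mark the GC box GGGCGG and, in Perp, also the AP-1 element TGANTCA, both searched on both strands.
Dsg3 (chr18:12074071-12074320, plus strand): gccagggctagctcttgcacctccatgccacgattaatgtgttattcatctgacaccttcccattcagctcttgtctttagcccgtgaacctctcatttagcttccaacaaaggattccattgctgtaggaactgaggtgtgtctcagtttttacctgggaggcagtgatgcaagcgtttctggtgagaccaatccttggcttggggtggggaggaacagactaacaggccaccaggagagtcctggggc
Dsc3 (chr18:11688872-11689121, minus strand): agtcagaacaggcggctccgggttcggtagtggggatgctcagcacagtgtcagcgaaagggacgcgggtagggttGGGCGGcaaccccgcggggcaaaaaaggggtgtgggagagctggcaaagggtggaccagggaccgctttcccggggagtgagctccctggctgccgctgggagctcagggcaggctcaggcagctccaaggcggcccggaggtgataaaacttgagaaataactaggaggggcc
Dsg2 (chr18:12121037-12121286, plus strand): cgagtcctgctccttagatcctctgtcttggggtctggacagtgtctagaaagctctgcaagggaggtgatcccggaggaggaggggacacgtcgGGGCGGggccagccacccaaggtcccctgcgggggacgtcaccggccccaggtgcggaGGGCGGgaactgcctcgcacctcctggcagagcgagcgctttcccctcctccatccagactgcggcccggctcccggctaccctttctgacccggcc
Dsc2 (chr18:11757467-11757716, minus strand): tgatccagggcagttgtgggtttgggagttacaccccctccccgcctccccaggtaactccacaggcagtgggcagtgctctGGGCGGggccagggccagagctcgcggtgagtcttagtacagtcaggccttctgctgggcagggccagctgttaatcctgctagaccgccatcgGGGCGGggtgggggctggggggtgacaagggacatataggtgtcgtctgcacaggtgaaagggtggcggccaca
Perp (chr1:15361534-15361783, plus strand): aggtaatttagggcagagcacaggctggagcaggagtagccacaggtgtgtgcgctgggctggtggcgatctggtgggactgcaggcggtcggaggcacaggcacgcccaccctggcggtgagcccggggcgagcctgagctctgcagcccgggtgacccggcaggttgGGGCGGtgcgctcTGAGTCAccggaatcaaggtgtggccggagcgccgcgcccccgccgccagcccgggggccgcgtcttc

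The stretch before Dsg3 held no GC box and the lowest GC content of the 8 members with a sequence, 51.6%, against a median of 51.2% over all promoters. Those before Dsc3, Dsg2, Dsc2, Dsp, Jup, Perp and Pkp1 had 64.4% to 75.2% GC, and each of these 7 held at least 1 GC box, a sequence found in 30.5% of the 33469 promoters. The AP-1 element was found before Perp alone among the 8, and in 6.34% of all promoters. The E-box CANNTG was found in 6 of the 8 and in 65.5% of all, and the element AACNGGTT, read by grainyhead-like factors, in none of the 8 and in 1.76% of all. The TATA box TATAAA was in none of the 8 and in 12.9% of all. By presence or absence no motif searched separated Dsg3 and Dsc3 from Dsg2 and Dsc2, while by number the GC boxes were 0 before Dsg3 and 1 before Dsc3, against 2 before each of Dsg2 and Dsc2. Other genes that varied with Dsg3 and Dsc3 had 4 (Dsp), 3 (Pkp1), 1 (Jup) and 1 (Perp), so the number did not separate the 2 sets.

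The comparison of EP with sham asks how these genes differed with periodontitis. Sham rats had hydrogel and it is not stated whether EP rats did, so periodontitis and hydrogel cannot be told apart in it. Perp and Dsg3 were lower in EP gingiva, and the other 7 did not pass limma over all 25 libraries. On the same libraries edgeR called 3 of the 9 lower, and 3155 of all 16092 genes. DESeq2 called 4 of the 9 lower, and 3577 of all genes. Perp, a 4-pass membrane protein of the desmosome and a target of p63, had 65733, 35732, 25445, 33831 and 69395 normalized counts in EP rats 1 to 5, against 149049, 134165, 224801, 29933 and 104826 in sham rats 1 to 5. Every EP rat was below sham 1, 2, 3 and 5, and sham 4 was lower than all EP rats except EP 3. Perp fell by 1.33 on the log2 scale (SE 0.397), with means of 46027 ± 20080 in EP and 128555 ± 70718 in sham (SD, n = 5 each; limma adjusted p = 0.0121).

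Dsg3, the desmoglein of the lower layers and the antigen of oral pemphigus vulgaris, had 11357, 5915, 3959, 6479 and 13804 normalized counts in EP rats, against 21272, 22440, 39551, 3573 and 19237 in sham rats. Sham 4 was the lowest of these 10 libraries and the other 4 sham libraries were the highest. The log2 fold change was -1.15 (SE 0.453, limma adjusted p = 0.0488). This call was a narrow one, lost without any 1 of EP 2, 3 and 4 and sham 1, 2, 3 and 5 (limma adjusted p = 0.0791 to 0.159) and with the rat number as a replicate block (limma adjusted p = 0.057), while that of Perp held without each single EP or sham library (limma adjusted p = 0.000383 to 0.0465) and was lost in a fit of the EP and sham groups alone (limma adjusted p = 0.0863). Its partner Dsc3, the desmocollin of the same layers, had 27930, 15123, 7664, 15116 and 27506 in EP rats, against 51872, 62180, 95833, 5787 and 52753 in sham rats. As for Dsg3, sham 4 was the lowest and the other 4 sham libraries were on top. The log2 fold change of Dsc3 was -1.23 with a wider error (SE 0.555, limma adjusted p = 0.0858).

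The genes of the inner plaque had smaller differences. Dsp, desmoplakin, had 151275, 91051, 59954, 88048 and 160320 normalized counts in EP rats, against 138268, 270118, 249198, 21867 and 215974 in sham rats. It was the member of the 7 whose groups overlapped even without sham 4, because sham 1 lay below EP 1 and EP 5. Jup, plakoglobin, which links the cadherin tails to desmoplakin, had 40312, 27777, 19160, 23989 and 38804 in EP rats, against 45065, 75073, 82944, 10911 and 53865 in sham rats. Sham 1 was only a little above EP 1, and sham 4 was again the lowest. Pkp1, the plakophilin that stabilises desmosomes of stratified epithelia, had 75166, 42818, 24683, 44301 and 80002 in EP rats, against 99508, 151902, 131750, 12456 and 119763 in sham rats. Pkp3, the plakophilin found in most epithelial layers, had 8503, 5620, 3778, 6164 and 10049 in EP rats, against 11801, 16109, 17907, 1976 and 12571 in sham rats. For both plakophilins, EP 5 came closest to the lowest of sham 1, 2, 3 and 5. The log2 fold changes were -0.38 for Dsp (SE 0.499), -0.61 for Jup (SE 0.373), -0.68 for Pkp1 (SE 0.510) and -0.58 for Pkp3 (SE 0.431), none past the threshold.

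Dsg2 and Dsc2 did not share this pattern. Dsg2 had 1841, 3994, 6343, 5159 and 2827 normalized counts in EP rats, against 2342, 3236, 2882, 4071 and 2957 in sham rats. Dsc2 had 3730, 8989, 10449, 3576 and 5629 in EP rats, against 4325, 5221, 6677, 4230 and 5647 in sham rats. For both genes the EP rats spread on both sides of the sham rats, and sham 4 was the highest sham library for Dsg2 and the lowest, next to sham 1, for Dsc2. The log2 fold changes were 0.27 (SE 0.383) and 0.19 (SE 0.430), neither past the threshold.

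**Figure D2:**
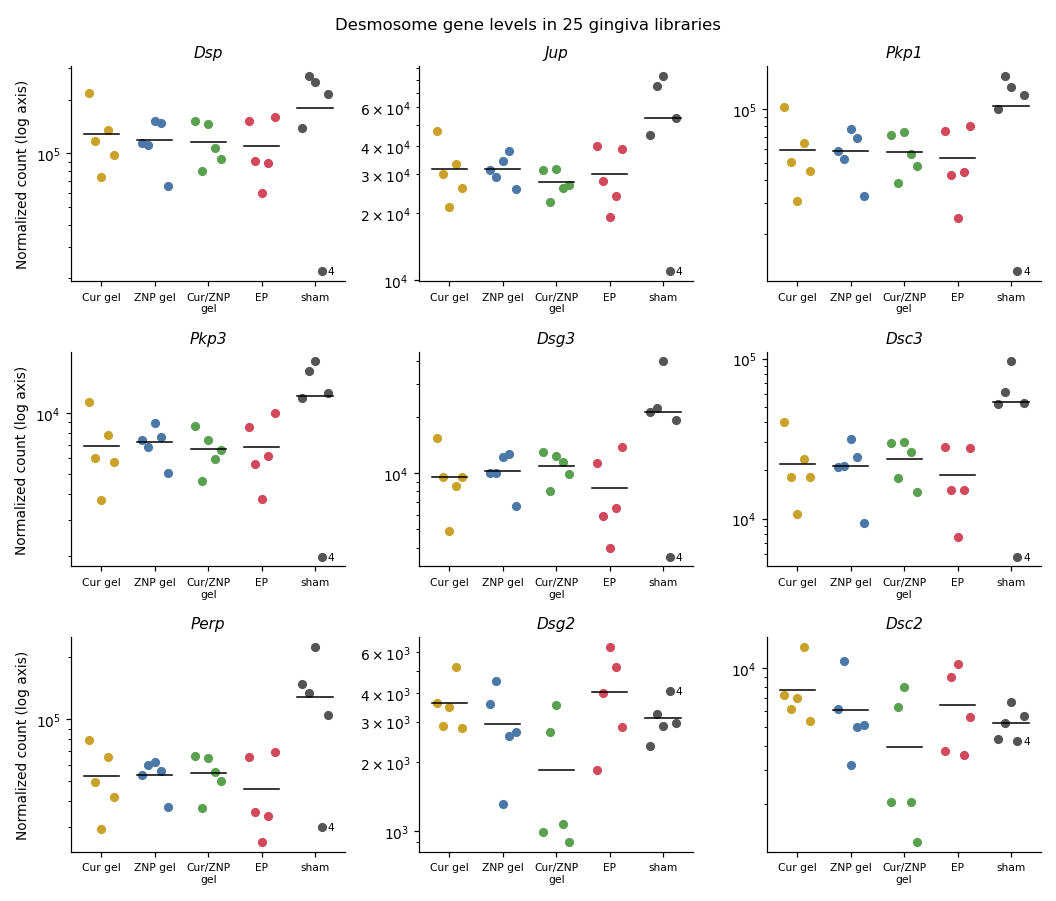
Normalized counts of the 9 desmosome genes in each of 25 libraries on log axes, by group from Cur gel to sham, with lines at the group means and sham 4 marked. In the first 7 panels sham 4 is the lowest of all 25 libraries, except for Perp, where EP 3 and Cur gel 3 are lower, while Dsg2 and Dsc2 are lowest in Cur/ZNP gel 5, at 898 and 1277.

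Of the 9 genes, 2 were called lower and none higher in EP, where limma called 37.6% of all 16092 genes tested, 18.8% in each direction. The median log2 fold change of the 9 was -0.61, against 0.01 for all genes. Leaving out sham 4 moved this count most. Without it, 7 of 9 were lower in EP, all but Dsg2 and Dsc2, where 19.4% of all genes were called lower. The log2 fold changes were then -1.79 for Perp (SE 0.309, limma adjusted p = 0.000383), -1.92 for Dsc3 (SE 0.400, limma adjusted p = 0.00133) and -1.71 for Dsg3 (SE 0.331, limma adjusted p = 0.000808). For Pkp1, Pkp3, Jup and Dsp they were -1.34, -1.16, -1.11 and -1.04, with limma adjusted p between 0.0015 and 0.019. In 6 of the 9 genes every EP library was then below every remaining sham library, as in 12.8% of all genes. Without EP 3 and EP 4 as well, 6 of 9 were lower in EP, where 14.6% of all genes were called lower. The smallest limma adjusted p of the 9 was then 0.00577, against 0.000383 when sham 4 alone was left out.

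Markers of basal keratinocytes moved with these genes. The 6 markers held 0.135% to 0.633% of the reads in EP and 0.0841% to 2.49% in sham, and none was at 0. Krt5 fell by 1.68 on the log2 scale in EP (SE 0.563, limma adjusted p = 0.023) and Itga6, the integrin of the basement membrane attachment, by 0.70 (SE 0.222, limma adjusted p = 0.017). They were the 2 of 6 markers that passed over all libraries, and 5 of 6 passed without sham 4, all lower. With the mean log2 level of the 6 markers as a covariate, 4 of the 9 genes were higher in EP and none lower, where 19% of all genes were called higher. Dsp then had a log2 fold change of 1.07 (SE 0.216, limma adjusted p = 0.0014), Pkp1 of 0.81, Pkp3 of 0.68 and Jup of 0.48, whereas Perp had -0.18 and Dsg3 0.20, neither called. The sign for Dsp, Jup, Pkp1 and Pkp3 thus differed between the fits without and with the covariate, and the part of tissue make-up was not tested. Of the suprabasal markers 1 of 9 was called higher and 0 lower, with a median log2 fold change of -0.27, but without sham 4 it was 0 higher and 1 lower with a median of -1.25, against a median of -1.16 for the desmosome genes. The suprabasal list was split, so its median does not stand for all of it. Without sham 4, Krt4, Ivl and Krt13 had 1.74, 1.21 and 0.88, and the others lay between -1.59 and -0.08. Of the skeletal muscle markers 6 of 7 were called higher over all libraries and 1 of 7 without sham 4, with 0.397% to 3.16% of the reads in EP and 0.0239% to 0.697% in sham, whose part was not tested either.

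**Figure D3:**
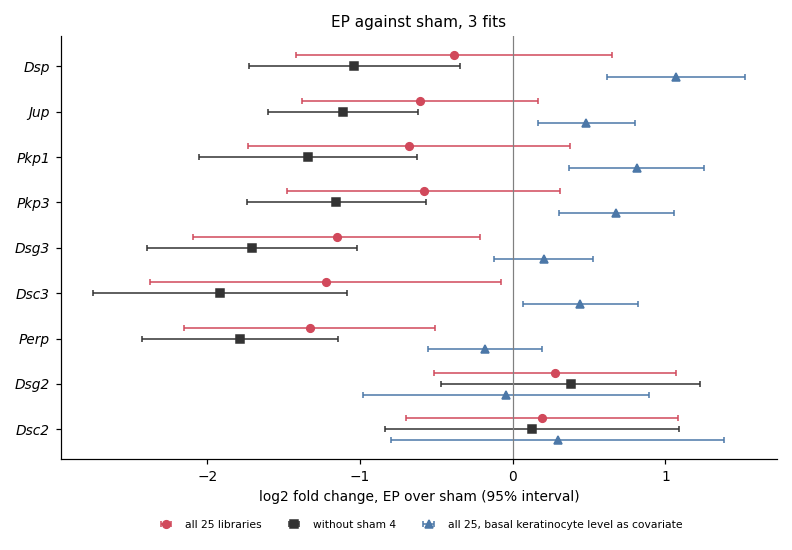
Log2 fold change of the 9 genes in EP over sham with 95% intervals, from limma fits of all 25 libraries (circles), without sham 4 (squares) and with the basal keratinocyte level as covariate (triangles). Without sham 4 the first 7 genes lie between -1.92 and -1.04, and with the covariate Dsp, Jup, Pkp1 and Pkp3 lie above 0.

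The level of each gene of the larger set followed the level of basal keratinocyte markers over the libraries. Pearson r with the mean log2 level of the 6 markers ran from 0.836 for Dsp to 0.965 for Dsg3, and r was -0.217 for Dsg2 and -0.023 for Dsc2 (n = 25). Dsg2 and Dsc2 followed the 10 markers of simple and gland epithelium instead, with r of 0.869 and 0.798. These r of Dsg2 and Dsc2 changed little without sham 4, EP 3 and EP 4, at 0.865 and 0.848 (n = 22). All points share library scaling, and these are descriptions without a test.

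**Figure D4:**
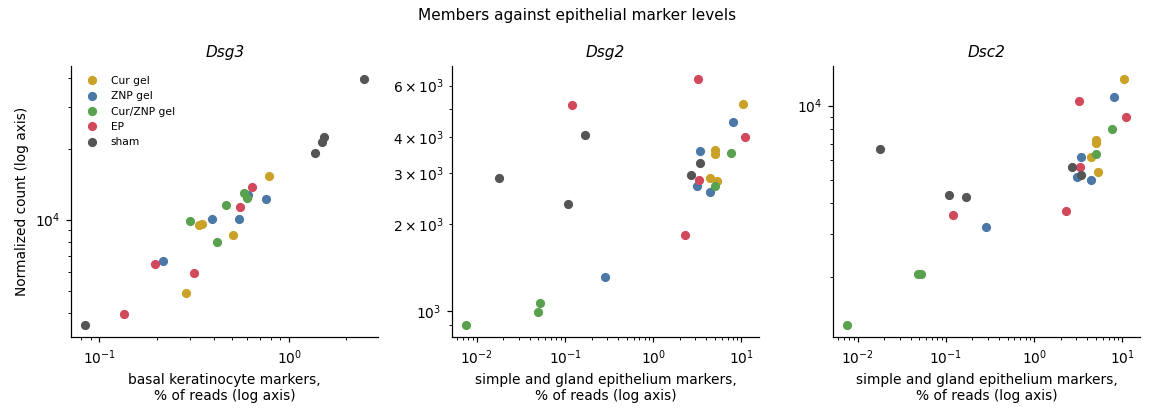
Normalized counts of Dsg3 against the share of reads of 6 basal keratinocyte markers, and of Dsg2 and Dsc2 against that of 10 simple and gland epithelium markers, for 25 libraries coloured by group, all axes logarithmic. The 3 Cur/ZNP gel libraries with 0.0525% or less of gland marker reads have the lowest Dsg2 and Dsc2. High gland marker shares are mostly Muc5b reads, and the r values in the text use the mean log2 level of the markers instead.

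The gels were compared with EP to ask whether these genes differed with treatment. If EP rats had no hydrogel, agent and hydrogel cannot be told apart in these comparisons. None of the 9 was called in any gel. In Cur gel against EP limma called 0% of all genes, and 0 of the 9 genes had an unadjusted p under 0.05. In ZNP gel against EP limma called 0.00621% of all genes, and again 0 of 9 had an unadjusted p under 0.05. In Cur/ZNP gel against EP limma called 0% of all genes, and 2 of 9, Dsg2 and Dsc2, had an unadjusted p under 0.05. Of all 16092 genes, 2054 had an unadjusted p under 0.05 in Cur/ZNP gel against EP, 284 in Cur gel and 481 in ZNP gel. edgeR called none of the 9 genes and 0% of all genes in each of these comparisons. DESeq2 called none of the 9 either, but against EP it called 0.491% of all genes for Cur gel, 0.379% for ZNP gel and 1.26% for Cur/ZNP gel.

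Perp had 79211, 49488, 29478, 65469 and 42195 normalized counts in Cur gel rats, 53614, 59935, 62011, 55957 and 37419 in ZNP gel rats and 66045, 37143, 64611, 55316 and 50225 in Cur/ZNP gel rats. All gel libraries except Cur gel 1 lay within the span of the EP rats, 25445 to 69395, and all lay below sham 1, 2, 3 and 5. The log2 fold changes over EP were 0.24 for Cur gel (95% interval -0.59 to 1.06), 0.31 for ZNP gel (-0.51 to 1.14) and 0.33 for Cur/ZNP gel (-0.49 to 1.15). Dsg3 had 15329, 9499, 4880, 8580 and 9567 in Cur gel rats, 10010, 10011, 12239, 12663 and 6645 in ZNP gel rats and 12899, 7997, 12348, 11504 and 9899 in Cur/ZNP gel rats. Its groups overlapped EP in the same way, and the log2 fold changes over EP were 0.26 for Cur gel (95% interval -0.68 to 1.20), 0.42 for ZNP gel (-0.51 to 1.36) and 0.52 for Cur/ZNP gel (-0.42 to 1.46). For Dsp, Jup, Pkp1, Pkp3 and Dsc3 the log2 fold changes over EP lay between -0.07 and 0.44 in the 3 gels. The 95% intervals of these 7 genes reached down to -0.92 and up to 1.59.

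Dsg2 and Dsc2 were lowest in Cur/ZNP gel. Dsg2 had 3601, 2882, 3485, 5195 and 2819 normalized counts in Cur gel rats, 3578, 4486, 1309, 2588 and 2713 in ZNP gel rats and 993, 2711, 3530, 1072 and 898 in Cur/ZNP gel rats. Cur/ZNP gel 1, 4 and 5 were below every library of the other 4 groups, while Cur/ZNP gel 2 and 3 were among them. Dsc2 had 7261, 6175, 7040, 12880 and 5357 in Cur gel rats, 6191, 10885, 3193, 4959 and 5099 in ZNP gel rats and 2052, 6342, 7998, 2052 and 1277 in Cur/ZNP gel rats. The same 3 libraries were the lowest of all 25. The log2 fold change over EP was -1.24 for Dsg2 (SE 0.383, limma adjusted p = 0.293) and -0.94 for Dsc2 (SE 0.430, limma adjusted p = 0.369).

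The 3 low libraries differed from the other Cur/ZNP gel libraries in gland epithelium markers as well. The 10 markers held 0.0488%, 0.0525% and 0.00757% of the reads in Cur/ZNP gel 1, 4 and 5, against 5.09% and 7.71% in Cur/ZNP gel 2 and 3. Krt18, a keratin of simple epithelia, had 57.4, 464 and 45.6 normalized counts in Cur/ZNP gel 1, 4 and 5, against 5416 and 7149 in Cur/ZNP gel 2 and 3. A low gland level was not always joined to low cadherins, since sham 3, with 0.0178%, had 2882 normalized counts of Dsg2 and 6677 of Dsc2. Across groups the 10 markers held 4.45% to 10.4% for Cur gel, 0.285% to 8.08% for ZNP gel, 0.00757% to 7.71% for Cur/ZNP gel, 0.12% to 11.1% in EP and 0.0178% to 3.4% in sham. Where the share was high, most of these reads were Muc5b, so a low share need not mean low levels of the other markers. EP 4, low in Muc5b at 3619 normalized counts, had the highest Krt8 of the EP rats, 27843. With the level of these markers as a covariate, a fit chosen after the values were seen, the log2 fold change in Cur/ZNP gel over EP was -0.31 for Dsg2 (SE 0.246) and -0.05 for Dsc2 (SE 0.357).

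The gels were also compared with each other, 3 pairs in all, at unequal amounts of each agent between the combined and the single gels. Limma and edgeR called 0% of all genes in each pair and 0 of the 9 genes. DESeq2 also called 0 of the 9, and of all genes 0.0373% for Cur/ZNP gel over Cur gel, 0.137% for Cur/ZNP gel over ZNP gel and 0.0435% for ZNP gel over Cur gel. In Cur/ZNP gel against Cur gel 2 of 9 had an unadjusted p under 0.05, Dsc2 with a log2 fold change of -1.26 (SE 0.430, limma adjusted p = 0.298) and Dsg2 with -1.17 (SE 0.383, limma adjusted p = 0.294). In Cur/ZNP gel against ZNP gel 1 of 9 did, Dsg2 with -0.80 (95% interval -1.59 to -0.01), and in ZNP gel against Cur gel 0 of 9. Of all 16092 genes, 1780, 818 and 183 had an unadjusted p under 0.05 in these 3 pairs, in that order. The other 7 genes differed between gels by -0.20 to 0.26 on the log2 scale.

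The gels were also compared with sham. Limma called 1 of 9 lower in Cur gel, Perp, with a log2 fold change of -1.09 (SE 0.397, limma adjusted p = 0.0345), where 38% of all genes were called, 19.1% lower. It called 0 of 9 in ZNP gel, where 32.1% of all genes were called, 15.4% lower. Perp, at -1.02 (limma adjusted p = 0.0542), was the 1 gene of 9 with an unadjusted p under 0.05, as were 7038 of all 16092 genes. In that comparison edgeR called 1 of 9 and 17.4% of all genes lower, and DESeq2 3 of 9 and 20.8%. In Cur/ZNP gel limma called 2 of 9 lower, Perp at -1.0 (SE 0.397, limma adjusted p = 0.0495) and Dsg2 at -0.97 (SE 0.383, limma adjusted p = 0.0483), where 39.7% of all genes were called, 19.5% lower. Without sham 4 it called 6 of 9 lower for Cur gel, 7 for ZNP gel and 7 for Cur/ZNP gel, where 18.6%, 15.2% and 18.6% of all genes were called lower. Dsp was the gene of the larger set not called in Cur gel (limma adjusted p = 0.06), and Dsg2 was no longer called in Cur/ZNP gel (limma adjusted p = 0.102). Over all libraries the calls were again narrow. Perp in Cur gel was lost without any 1 of Cur gel 2, 3 and 5 and sham 1, 2 and 3 (limma adjusted p = 0.0596 to 0.113). In Cur/ZNP gel Perp was lost without any 1 library of either group except sham 4 (limma adjusted p = 0.0543 to 0.151), and Dsg2 without any 1 except Cur/ZNP gel 2 and 3 (limma adjusted p = 0.0524 to 0.139). These comparisons share the sham rats with each other and with EP against sham.

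The balance of cadherins was followed as a ratio of normalized counts within each library, which does not depend on the scaling factor. Because read number grows with transcript length, a ratio is compared between libraries and its size has no meaning of its own. Dsg3:Dsg2 had a median of 3.30 in Cur gel (1.40 to 4.26), 2.80 in ZNP gel (2.23 to 9.35), 10.7 in Cur/ZNP gel (2.95 to 13.0), 1.48 in EP (0.624 to 6.17) and 6.93 in sham (0.878 to 13.7). Dsc3:Dsc2 had a median of 2.94 in Cur gel (1.51 to 5.50), 3.38 in ZNP gel (1.84 to 9.87), 11.4 in Cur/ZNP gel (2.83 to 14.4), 4.23 in EP (0.733 to 7.49) and 11.9 in sham (1.37 to 14.4). Both ratios spread widely within each group, and every pair of groups overlapped. Their high values in Cur/ZNP gel came from the 3 libraries with low Dsg2 and Dsc2, and the lowest sham value of each was that of sham 4.

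**Figure D5:**
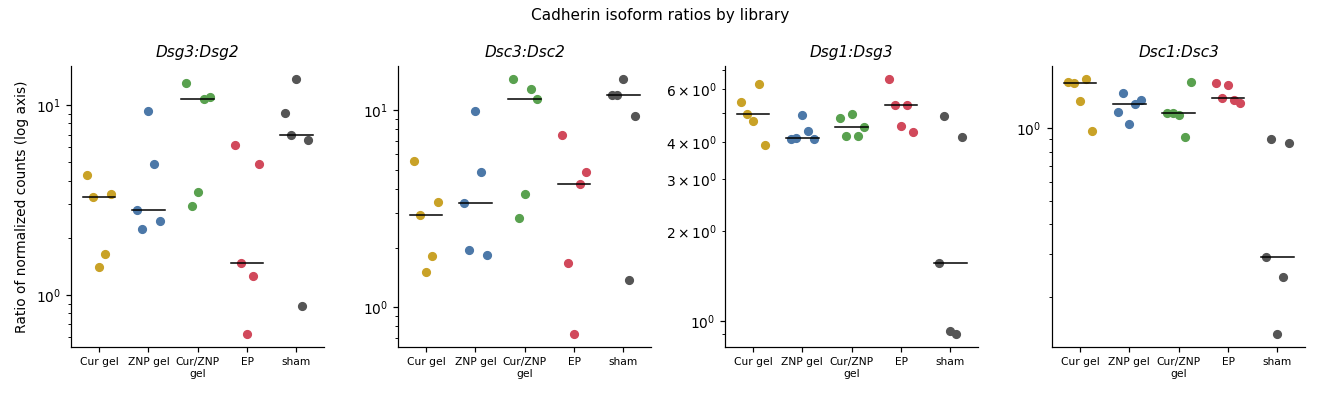
Ratios of normalized counts of 4 cadherin pairs in 25 libraries by group on log axes, with lines at the group medians. Dsg3:Dsg2 and Dsc3:Dsc2 overlap between all groups, while Dsg1:Dsg3 lies at 3.89 to 6.50 in the 20 libraries with periodontitis and falls to 0.903, 0.926 and 1.56 in sham 4, 3 and 1.

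Other genes of the junction and of the layers above were taken from a list of 11, of which 7 were tested. None passed limma in EP against sham, and edgeR and DESeq2 called 0. An unadjusted p under 0.05 was found for 7598 of all 16092 genes and for 1 of the 7. That gene was Ppl, periplakin, a cornified envelope protein bound to desmosomes, with means of 28215 ± 15483 in EP and 15437 ± 8015 in sham (SD, n = 5 each) and a log2 fold change of 0.95 (SE 0.438, limma adjusted p = 0.0901). Ppl was the 1 gene of 7 called against sham in each gel, with log2 fold changes of 1.11 for Cur gel, 1.33 for ZNP gel and 1.65 for Cur/ZNP gel (limma adjusted p = 0.0486, 0.0242 and 0.00544). Without sham 4 the call was kept in Cur/ZNP gel, at 1.17 (limma adjusted p = 0.0142), and lost in Cur gel, at 0.63, and ZNP gel, at 0.85 (limma adjusted p = 0.168 and 0.0741), and edgeR over all libraries called 0 of 7 in Cur gel. The upper layer cadherins Dsg1 and Dsc1 had log2 fold changes of 0.26 (SE 0.629) and 0.66 (SE 0.673) in EP over sham, and both signs turned without sham 4, to -0.57 (SE 0.416) and -0.20 (SE 0.473). Dsg4, a desmoglein of hair, had 3.16 (SE 1.88) from low counts, and Kazn, kazrin, a binder of periplakin, had 0.38 (SE 0.273). Without sham 4, 1 of 7 was lower in EP, Evpl, envoplakin, the partner of periplakin, at -0.90 (SE 0.312, limma adjusted p = 0.0284). The median log2 fold change of the 7 was 0.38 over all libraries and 0.07 without sham 4.

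Of 11 adherens junction genes, all tested, 2 were higher, 1 was lower and 8 were not called in EP against sham. Of all genes 18.8% were called in each direction there. Afdn, afadin, which binds nectins to actin, rose by 1.56 on the log2 scale (SE 0.334, limma adjusted p = 0.00133) and Plekha7, a binder of p120 catenin, by 0.64 (SE 0.203, limma adjusted p = 0.0164). Cdh3, the cadherin of basal layers, fell by 1.19 (SE 0.447, limma adjusted p = 0.0394), and Cdh1, E-cadherin, had -0.56 (limma adjusted p = 0.0842). Without sham 4, Plekha7 was at a limma adjusted p of 0.0502, and Afdn and Cdh3 had log2 fold changes of 1.22 and -1.79. Nectin1 was then also called lower, at -1.23 (SE 0.246, limma adjusted p = 0.00101).

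Of 14 genes that regulate keratinocyte adhesion, 12 were tested, and 2 were higher and 2 lower in EP, where 18.8% of all genes were called in each direction. Tp63, the gene of p63, which activates Perp, fell by 1.29 on the log2 scale (SE 0.406, limma adjusted p = 0.0162), with 6677 ± 2565 normalized counts in EP and 18792 ± 10886 in sham (SD, n = 5 each). Adam17, a sheddase of cell surface proteins, fell by 0.38 (SE 0.110, limma adjusted p = 0.00955). Prkca, a kinase that loosens desmosomes, rose by 0.88 (SE 0.320, limma adjusted p = 0.034) and Egfr by 0.91 (SE 0.346, limma adjusted p = 0.0434). Without sham 4 neither Prkca nor Egfr was called (limma adjusted p = 0.052 and 0.144), and 5 of the 12 were lower, where 19.4% of all genes were called lower. These lists were chosen with earlier results of these data known.

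The genes whose pattern over the 25 libraries was most like the mean standardized level of the 9 genes were sought among 14623 genes with a mean of at least 100 normalized counts. The 8 most alike were Fam83h (r = 0.971), Bmp7 (r = 0.969), Lancl1 (r = 0.963), Ahcyl2 (r = 0.959), Fam83b (r = 0.956), Slc5a10 (r = 0.950), Cbr3 (r = 0.948) and Tnpo2 (r = 0.947). Fam83h organises keratin filaments in epithelial cells, and Bmp7 is a secreted growth factor. Without sham 4 their r lay between 0.931 and 0.962.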

How the data were processed

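Reads per Ensembl transcript (Rnor_6.0) were deposited by the authors as a signal, each read number divided by 1 scaling factor per library, with DESeq2 named in the submitters' processing notes. The libraries were stranded total RNA depleted of ribosomal RNA. The aligner and counter are not given in the sources used here. Every value was a whole multiple of its column's step within 0.01, which gave back whole reads in 100% of values. Transcripts were summed per symbol and chromosome to 30547 genes, and 840 blank rows were left out.

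A gene was tested if any library reached a CPM of 2, which held for 16092 genes. limma 3.58.1 (R 4.3.3) was fitted with a robust variance trend to log2(normalized count + 1) of all 25 libraries in 1 model, without a block, so fold changes are on that scale. The recovered reads were also tested with edgeR 4.0.16 (TMM) and with DESeq2 1.42.0. p-values were two-sided and adjusted by Benjamini-Hochberg over all 16092 genes in each comparison, with a threshold of 0.05. They measure the spread between rats. The fits were tested on simulated data.

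Named were all members, up to 4 genes of each context list with the smallest p in EP against sham, and the 8 genes most like the members' mean. Evpl, Dsg1, Krt15, Krt18 and Nectin1 were named after their values were seen. The members and lists were chosen with earlier results of these data known. Alternatives were other pseudocounts, filters, scalings, tools, fits of 2 groups, covariates and left-out libraries.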

Additional observations from a re-analysis of the deposited data

Results flagged for a closer look

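One library stood apart from its group among the 45 combinations of gene and group examined. Dsc2 had 12880 normalized counts in Cur gel 4, while the other 4 Cur gel libraries lay between 5357 and 7261. The gap to the next library was 0.747 of the group's range, above Dixon's critical value of 0.71 for 5 samples, which chance passes in about 1 of 20 groups. That library also had the highest share of simple and gland epithelium marker reads in its group, 10.4%, against 4.45% to 5.28% in the others, and the part of these cells was not tested.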

How the results depend on the processing

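In EP against sham, where 2 of the 9 genes were called, the count was 1 with TMM factors, with no filter, with filterByExpr, with the replicate block and with the gland epithelium covariate, 0 in a fit of the 2 groups only, 4 with DESeq2, 4 with the basal keratinocyte covariate, all 4 of these higher, and 6 without sham 4, EP 3 and EP 4. It was 3 with edgeR, all lower, and ran from 1 to 7 with single libraries left out. In Cur gel against sham, with 1 called, the count was 0 in 2 groups only and with the gland epithelium covariate, 3 with edgeR and with DESeq2, 5 with the basal keratinocyte covariate, all higher, 7 without the 3 libraries that stood apart, and 0 to 6 with single libraries left out. In ZNP gel against sham, with 0 called, it was 3 with the basal keratinocyte covariate, all higher, 3 with DESeq2, 1 with edgeR, 7 without those 3 libraries and 0 to 7 with single libraries left out. In Cur/ZNP gel against sham, with 2 called, it was 0 in 2 groups only, with filterByExpr, with no filter and with TMM factors, 1 with the replicate block and with the gland epithelium covariate, 3 with DESeq2, 3 with the basal keratinocyte covariate, of which 2 were higher and 1 lower, 7 without those 3 libraries and 0 to 7 when single libraries were omitted. Over all genes, in the 4 comparisons with sham, 17.4% to 22.7% were called lower with edgeR, 20.8% to 24.7% with DESeq2, 14.6% to 18.9% without those 3 libraries and 5.48% to 10.7% in 2 groups only, and 19% to 23.2% were called higher with the basal keratinocyte covariate. In the 6 comparisons among gels and EP the count stayed at 0 in every alternative. The upper end of each range against sham was reached without sham 4. The rat numbers did not pair the samples (r of deviations between same-numbered libraries -0.392 to 0.506, median -0.007 over 50 pairs).

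The log2 fold change of EP over sham reversed with the basal keratinocyte covariate for Dsp (1.07), Jup (0.48), Pkp1 (0.81), Pkp3 (0.68), Dsg3 (0.20), Dsc3 (0.44) and Dsg2 (-0.042). That of Dsg2 also reversed without sham 4, EP 3 and EP 4 (-0.044) and with the gland epithelium covariate (-0.22), and that of Dsc2 with the gland epithelium covariate (-0.28) and without EP 3 (-0.013, the lowest value with single libraries omitted, up to 0.37). Without the 3 libraries r of Dsg2 with Dsc2 was 0.972. Group levels moved by less than the spread between rats with TMM factors, and cadherin ratios with the most abundant transcript alone. The ratio of Pkp1 to Pkp2 was not run. The cause of these changes was not tested.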

Other observations

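The upper-layer cadherins divided the sham rats, a pattern chosen after the values were seen and not tested. The ratio of normalized counts Dsg1:Dsg3 was 3.89 to 6.26 for Cur gel, 4.10 to 4.94 for ZNP gel, 4.17 to 4.97 for Cur/ZNP gel and 4.30 to 6.50 for EP. In sham rats 1 to 5 it was 1.56, 4.88, 0.926, 0.903 and 4.14. Sham 2 and 5 were thus within the span of the other groups, and sham 1, 3 and 4 were below all 22 other libraries. Dsc1:Dsc3 was lowest in the same 3 rats, with 0.977 to 1.60 for Cur gel, 1.04 to 1.40 for ZNP gel, 0.916 to 1.56 for Cur/ZNP gel, 1.27 to 1.54 for EP and 0.291, 0.899, 0.14, 0.241 and 0.865 in sham rats 1 to 5.

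The same 3 sham libraries were low in other genes. Afdn had 7008, 7134, 6019, 6315 and 6143 normalized counts in EP rats, against 1274, 5582, 1855, 837 and 4675 in sham rats. Egfr had 2413, 2061, 1780, 1862 and 1820 in EP rats, against 622, 2894, 903, 384 and 2062 in sham rats. Simple and gland epithelium markers held 0.108%, 0.0178% and 0.169% of the reads in sham 1, 3 and 4, against 3.4% and 2.67% in sham 2 and 5. The higher shares were mostly Muc5b, with 1795990 and 1303017 normalized counts in sham 2 and 5, against 50718 in sham 4. All other markers of that list were highest in sham 4 among the sham rats, such as Krt18 at 21241 against 228 to 3035. Sham 4 was thus low in Muc5b and not in gland markers as a set. No label used here divides the sham rats in this way.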
